A study of Sus scrofa with 5 samples.

Results

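The complement and coagulation genes described here are 40 named genes of these 2 plasma protein cascades, their cell-surface receptors and their inhibitors, out of 30822 genes in the deposited files. They were chosen by gene symbol, and each symbol matched 1 row in every file. Female pigs (Sus scrofa) of the Indian Ghoongroo breed were the source of the ovarian follicles, whose RNA was sequenced as 3 large follicle and 2 small follicle libraries. No treatment or allele is stated beyond the follicle size, and the study set large against small follicles for differential expression. The titles call the replicates biological. The labels do not state the age of the animals, the follicle diameters or how many follicles or animals went into a library. The p-values therefore measure only the spread between these libraries.

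Complement is a chain of plasma proteins that tags and perforates foreign or damaged cells. The classical route starts when C1q binds antibody or cell debris, the lectin route when collectins bind sugars, and the alternative route runs continuously at C3. All routes cleave C3 and can end in a pore built from the terminal proteins, while membrane and soluble regulators restrain the chain on host cells. Blood clotting starts when tissue factor (F3) meets plasma, proceeds through F10 and F5 to thrombin (F2), and is held back by the tissue factor pathway inhibitors and by the thrombomodulin, endothelial protein C receptor and protein S system. Both cascades are classically made in the liver, and local production in macrophages, stroma and endothelium is well known. In the ovary, fluid that seeps from plasma fills the growing follicle, and at ovulation the follicle wall is broken and repaired.

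The libraries held 9523739 to 11507527 fragments each, worked back from the deposited values. A level is given as FPKM, that is, fragments scaled to the length of the gene and the total of the library, so that levels of different genes can be compared per length. At these totals 3 fragments over 2000 bases amount to between 0.130 and 0.158 FPKM, a floor that covers counting error only. Markers of both follicle layers were present in every library: the granulosa hormone subunit INHA had 4474 to 11739 FPKM in large and 2876 to 3515 FPKM in small follicles, and the theca enzyme CYP17A1 had 726 to 2451 FPKM in large and 145 to 147 FPKM in small follicles. Other granulosa markers ran the other way: 7 of the 9 had negative fold changes (median -0.79), and INHBB, an activin and inhibin chain, was called lower by limma, with 14.2, 37.1 and 31.8 FPKM in large and 121 and 343 FPKM in small follicles (adjusted p = 0.0237). Theca markers did not all go with CYP17A1: of the 7, 5 had positive and 2 negative fold changes (median 1.13), against 39.9% positive among all genes tested. GLI1 was lower in large follicles without overlap, with 2.41, 1.06 and 2.11 FPKM in large and 4.47 and 4.85 FPKM in small follicles. Libraries also differed within the groups. In 36.9% of all genes tested, the 2 lowest values were those of large follicle replicate 2 and small follicle replicate 1, a count made after the data were seen. The same held for 9 of the 37 complement and coagulation genes tested, a lower share of 24.3%. The mitochondrial mRNA share was 3.46%, 6.34% and 3.09% in large and 8.53% and 4.22% in small follicles, with the highest share of each group in those same 2 libraries. Their part in the results was not tested. In bulk tissue, fewer cells of a type and less RNA per cell cannot be told apart.

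No complement or coagulation gene passed the test between large and small follicles. Of the 40 genes, 37 reached 1 FPKM in at least 2 libraries and were tested on log2(FPKM + 1) with limma, together with 13087 genes in all, and a gene is called at a Benjamini-Hochberg adjusted p under 0.05. Limma called 0 of the 37, against 0.978% of all genes tested, of which 0.535% had higher and 0.443% lower large follicle values. At an unadjusted limma p under 0.05 there were 7 of 37, against 10.4% of all genes tested. Of the 7, 4 had higher values in large follicles, against 4.76% of all genes tested, and 3 had lower values, against 5.67%. Limma voom, a count-based fit on the recovered fragments, also called 0 of 37, against 0.535% of all genes tested, and had 7 at an unadjusted p under 0.05, against 10%. The values of 14 of the 37 did not overlap between the groups, 10 higher and 4 lower in large follicles, which is 37.8% against 26.1% of all genes tested. In the higher direction that share of all genes tested was 10.9%, and in the lower direction 15.2%. The 14, and the 7 above, include C5, C9 and MASP1. These reached 1 FPKM only in the group where they were higher and entered the test through it. Each fold change is the large minus the small follicle mean of log2(FPKM + 1), a scale that understates differences of low genes. Their median was 0.13 over the 37 genes and -0.084 over all genes tested, and 25 of the 37 had a positive fold change where 39.9% of all genes tested did.

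**Figure D1:**
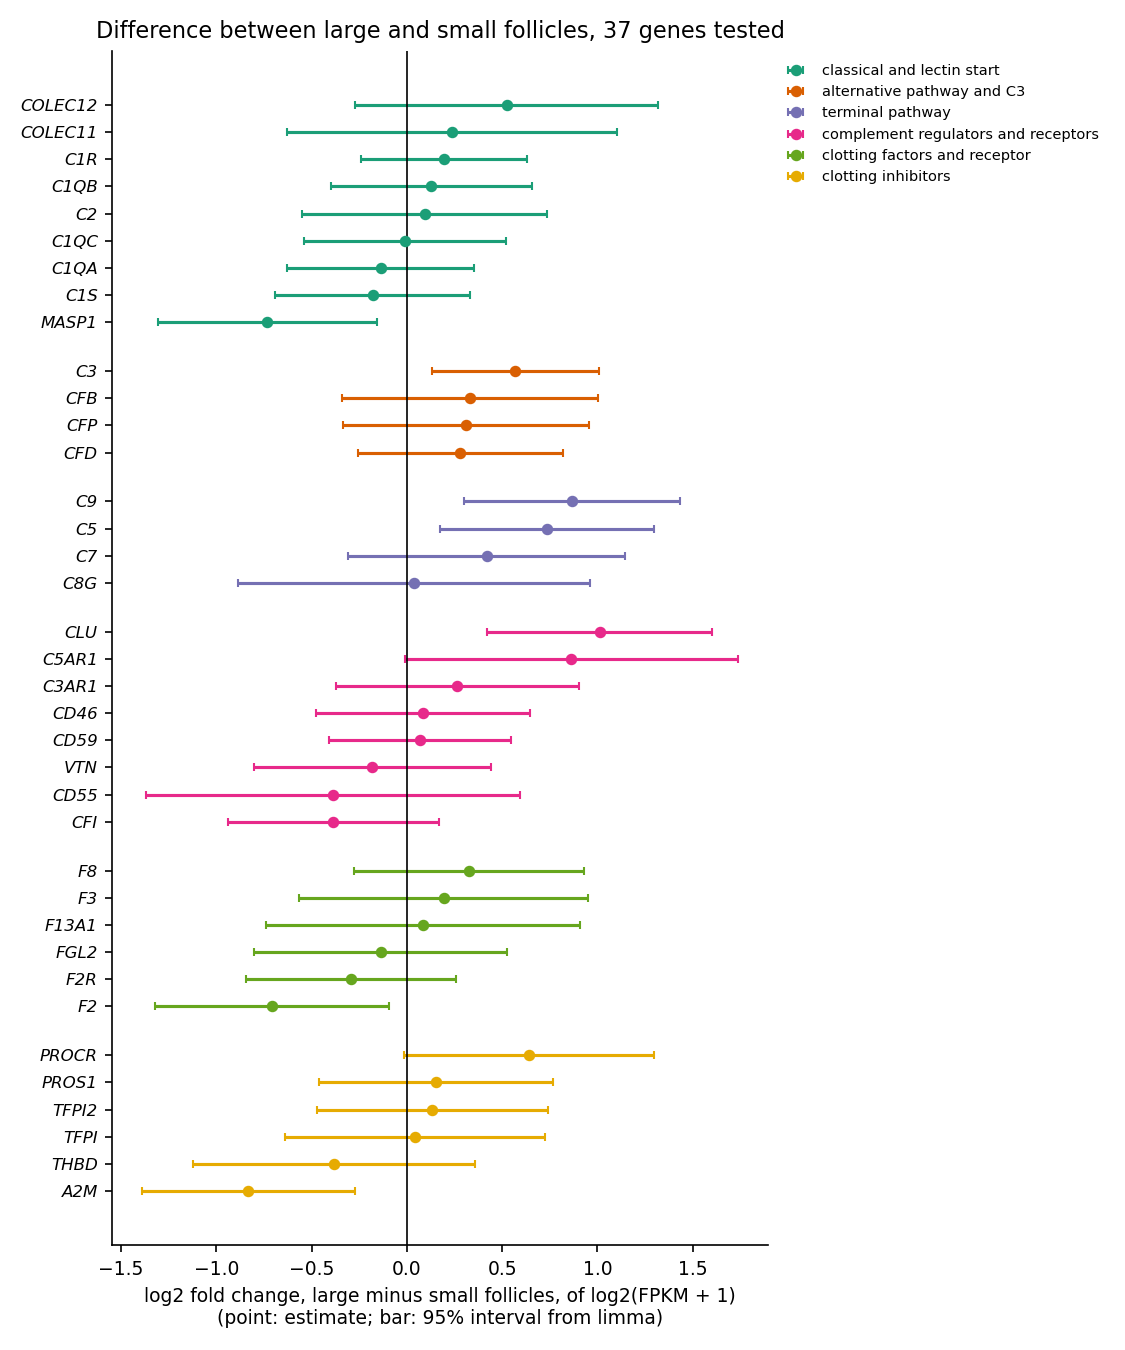
Log2 fold changes of the 37 tested genes, large minus small follicles, on log2(FPKM + 1) (horizontal axis), with 95% intervals from limma, grouped by role. The intervals of CLU, C9, C5 and C3 lie above 0 and those of A2M, MASP1 and F2 below it, while no gene has an adjusted p under 0.05.

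Levels of the 40 genes lay far apart. Averaged over the 5 libraries, 9 genes were at 100 FPKM or more, 10 between 10 and 100, 17 between 1 and 10, and 4 under 1. The regulator CLU was highest at a mean of 363 FPKM, followed by the inhibitor TFPI2 at 223 FPKM, the membrane regulator CD59 at 222 FPKM and the protease inhibitor A2M at 220.3 FPKM. These neighbours cannot be ordered, since the ranges of TFPI2, CD59 and A2M over the 5 libraries overlap. C1S, C1R, C7, C1QC and C1QB came next, at means between 110.3 and 157 FPKM. C6, F10 and F5 stayed under 1 FPKM in all 5 libraries and were not tested.

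**Figure D2:**
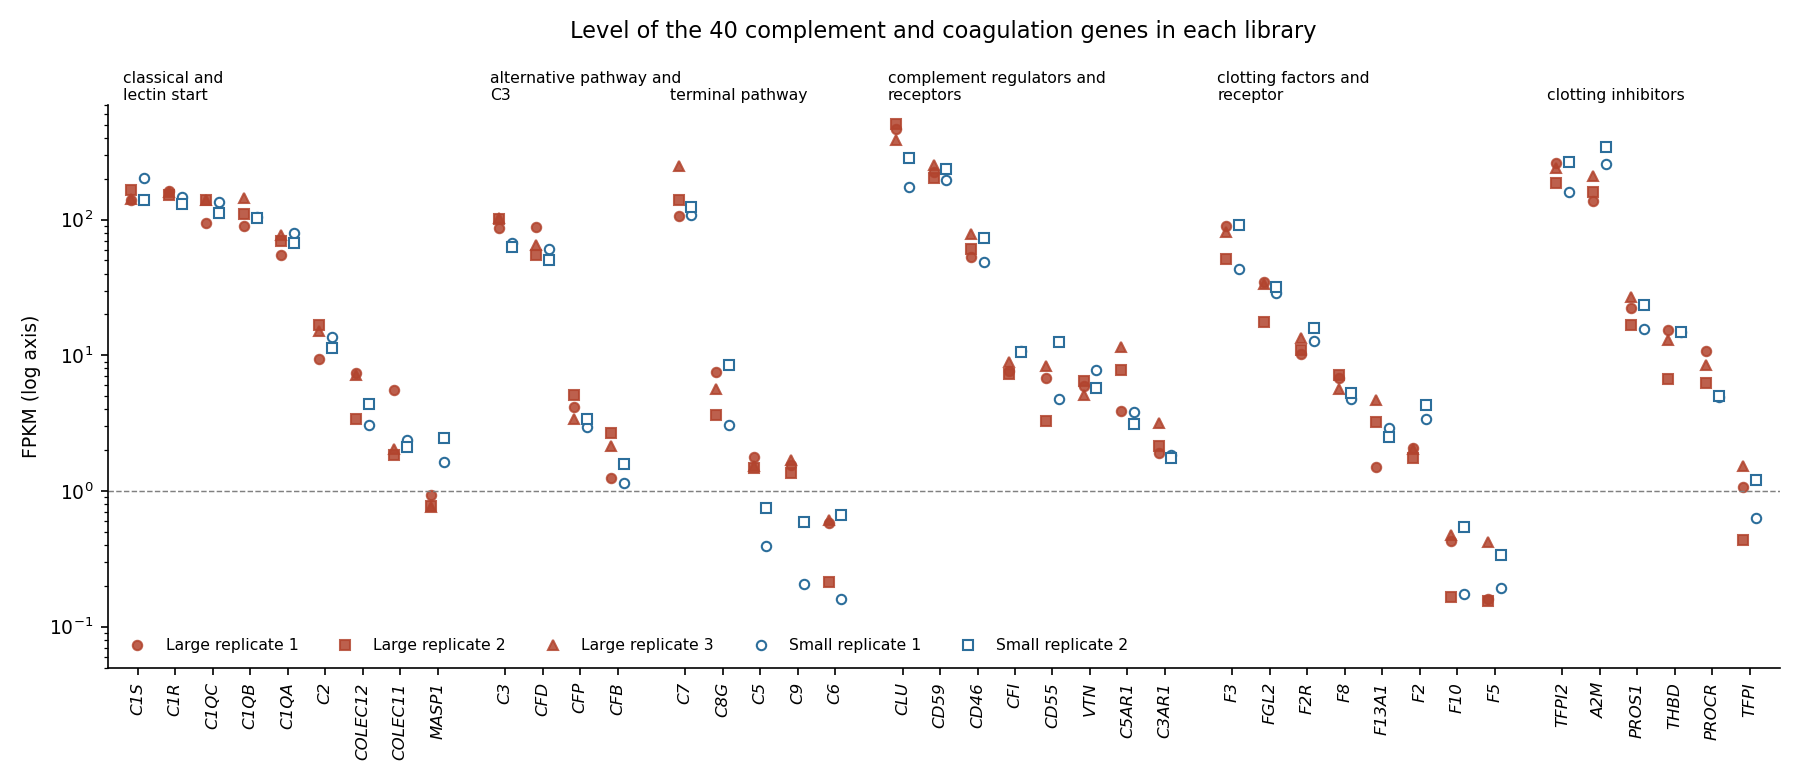
FPKM of each of the 40 genes in each library on a log axis, with large follicles as filled symbols at the left and small follicles as open symbols at the right of each gene, and the dashed line at 1 FPKM. The genes lie between 0.156 FPKM (F5) and 509 FPKM (CLU). The groups are apart for 14 of the 37 genes tested, which is 37.8% against 26.1% of all genes tested.

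The genes of the first complement component were abundant. Limma called 0 of the 9 genes of the classical and lectin start, against 0.978% of all genes tested. C1q, which recognises antibody and debris, is built from 3 chains whose genes stand in a row on pig chromosome 6 (Sscrofa11.1), C1QA at 80586259 to 80589213, C1QC at 80592591 to 80597464 and C1QB at 80601680 to 80606076, all on the plus strand. C1QA had 54.7, 69.1 and 76.6 FPKM in large follicles, against 79.6 and 66.9 FPKM in small follicles. C1QB had 90.2, 110.3 and 145 FPKM in large follicles, against 104 and 102 FPKM in small follicles. For C1QC the values were 94.3, 140.1 and 139 FPKM in large and 135 and 113 FPKM in small follicles. All 3 chains were lowest in large follicle replicate 1, and the groups overlapped for each. The log2 fold changes were -0.14 for C1QA (95% interval -0.63 to 0.35), 0.13 for C1QB (-0.40 to 0.65) and -0.01 for C1QC (-0.54 to 0.52), with limma adjusted p values of 0.901, 0.919 and 0.996. Within a library the C1QB level was 1.65, 1.60 and 1.89 times that of C1QA in large and 1.31 and 1.53 times in small follicles.

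C1q is a product of macrophages, so macrophage markers are given beside it. Of 14 listed markers, 13 are in the files and 11 were tested. All 11 had positive fold changes (median 0.55), against 39.9% of all genes tested, and 0 were called by limma, against 0.978%. The groups of 7 did not overlap, all higher in large follicles, against 10.9% of all genes tested, and 4 had an unadjusted p under 0.05, against 10.4%. The 13 summed to 259.6, 383 and 326 FPKM in large and 205 and 172 FPKM in small follicles. The signalling adaptor TYROBP had 61.0, 97.5 and 61.0 FPKM in large and 37.6 and 24.4 FPKM in small follicles (limma adjusted p = 0.0920), whereas the growth factor receptor CSF1R had 15.4, 24.9 and 19.6 FPKM in large and 21.5 and 15.4 FPKM in small follicles (limma adjusted p = 0.946). The summed C1q chains were 3.92, 3.28 and 5.90 times the TYROBP level in large follicles, against 8.47 and 11.5 times in small follicles. The same sum was 15.6, 12.8 and 18.4 times the CSF1R level in large and 14.8 and 18.3 times in small follicles. Relative to AIF1 it was 8.62, 15.1 and 16.1 times in large and 39.8 and 19.5 times in small follicles, and relative to CD68 it was 14.4, 7.86 and 7.58 times in large and 16.2 and 14.6 times in small follicles. Of these 4 ratios, those to TYROBP, AIF1 and CD68 did not overlap between the groups and that to CSF1R did, and none was tested. The part of macrophages in the C1q values was not tested.

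**Figure D3:**
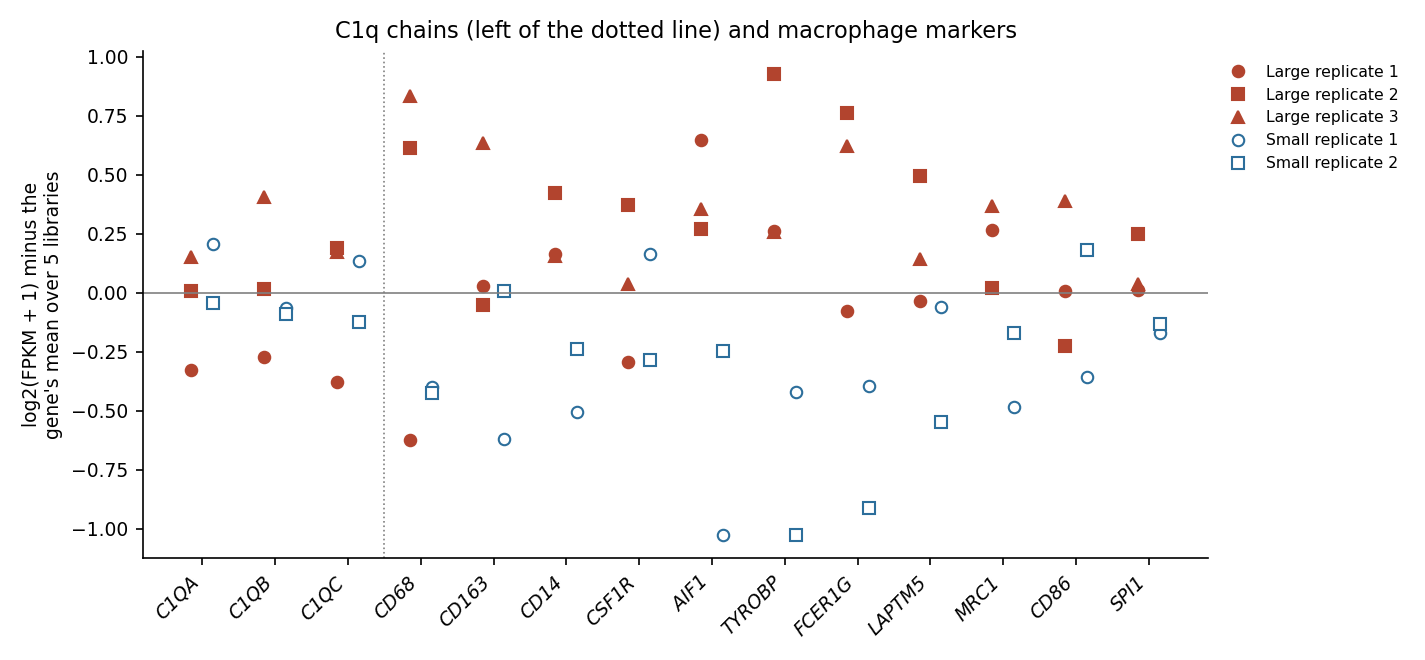
Log2(FPKM + 1) of the C1q chain genes and the 11 tested macrophage markers in each library, as the difference from each gene's mean over the 5 libraries (vertical axis), with large follicles filled and small follicles open. The 3 C1q genes are lowest in large follicle replicate 1 and mixed otherwise, while TYROBP, AIF1 and FCER1G are higher in all large than in all small follicles.

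C1R and C1S, the proteases that C1q activates, lie 15159 bases apart on chromosome 5. C1R had 163, 153 and 159 FPKM in large follicles, against 147 and 129.9 FPKM in small follicles. The groups did not overlap, but the difference was small, with a fold of means of 1.14 and a log2 fold change of 0.19 (95% interval -0.24 to 0.63, limma adjusted p = 0.837). C1S had 139.7, 164 and 141 FPKM in large and 203 and 138 FPKM in small follicles, with small follicle replicate 1 the highest of the 5. On the log2 scale it was -0.18 (limma adjusted p = 0.879). C2, which carries the protease of the classical C3 convertase, ranged from 9.39 to 16.7 FPKM in large and from 11.3 to 13.7 FPKM in small follicles.

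The lectin route genes among the 40 were at low levels, and the protease gene MASP1 had the lowest fold change of the 3. MASP1 had 0.929, 0.772 and 0.761 FPKM in large follicles, against 1.65 and 2.45 FPKM in small follicles. Its fragments numbered 43, 31 and 32 in the large and 63 and 99 in the small follicle libraries. Both small follicle libraries were above all large ones. The log2 fold change was -0.73 ± 0.26 (SE) and the means were 2.5-fold higher in small follicles, with a limma adjusted p = 0.318. MASP1 reached 1 FPKM in small follicles only, so it entered the test through the group where it was higher. The collectin COLEC12, a scavenger receptor with a sugar-binding domain, had 7.37, 3.42 and 7.21 FPKM in large and 3.08 and 4.37 FPKM in small follicles. Its lowest values were in large follicle replicate 2 and small follicle replicate 1, and the groups overlapped (log2 fold change 0.52, SE 0.35, limma adjusted p = 0.712). COLEC11, a soluble collectin, ranged from 1.83 to 5.52 FPKM in large and from 2.11 to 2.38 FPKM in small follicles, with large follicle replicate 1 alone above 2.38 FPKM. COLEC12 overlaps a lncRNA gene on the other strand, LOC110261178, with 0.200 to 1.56 FPKM.

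C3 and the alternative pathway had higher mean values in large follicles in 4 of 4 genes, where 39.9% of all genes tested had a positive fold change. Limma called 0 of the 4, against 0.978% of all genes tested, and the median log2 fold change was 0.32. C3, the protein at which all routes meet, had 86.3, 101 and 103 FPKM in large follicles, against 66.8 and 63.0 FPKM in small follicles. Every large follicle library was above both small ones, and replicates within a group lay close together. The means were 97.0 ± 9.29 FPKM (SD, n = 3) in large and 64.9 ± 2.74 FPKM (SD, n = 2) in small follicles, a 1.49-fold difference with a log2 fold change of 0.57 (95% interval 0.13 to 1.01, limma adjusted p = 0.311). It lies at chromosome 2, 72431470 to 72471622 (Sscrofa11.1), with fragments numbering 5143, 5248 and 5592 in the large and 3295 and 3272 in the small follicle libraries. Whichever library was left out, the C3 fold change was in the range 0.52 to 0.65.

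CFD, the protease adipsin that cleaves factor B, had 87.8, 55.2 and 64.5 FPKM in large follicles, against 61.1 and 50.7 FPKM in small follicles. Large follicle replicate 1 stood above the rest, and the other libraries of both groups overlapped (log2 fold change 0.28, SE 0.24, limma adjusted p = 0.791). CFD overlaps MED16 on the other strand, which had 10.6 to 19.3 FPKM. The labels do not state whether counting used the strand, so the levels of CFD, COLEC12 and F8, which overlap another detected gene, are uncertain. CFP, properdin, which stabilises the alternative convertase, had 4.18, 5.08 and 3.40 FPKM in large and 2.97 and 3.39 FPKM in small follicles without overlap, the lowest large value lying just above the highest small one (limma adjusted p = 0.812). CFB, factor B, ranged from 1.25 to 2.65 FPKM in large and from 1.15 to 1.59 FPKM in small follicles, and its gene begins 34 bases after the end of C2 on chromosome 7.

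The terminal pathway had 1 abundant gene, C7. C7 had 107, 139 and 249.7 FPKM in large follicles, against 108 and 123 FPKM in small follicles. Large follicle replicate 3 was the highest, and the lowest value was also in a large follicle, so the groups overlapped (log2 fold change 0.42, SE 0.32, limma adjusted p = 0.757). Leaving out large follicle replicate 3 gave a fold change of 0.076, and leaving out large follicle replicate 1 gave 0.68. Per library, C7 stood at 183 to 647 times its partner C6 in large and 184 to 673 times in small follicles. C7 and C6 are neighbours on chromosome 16, 120938 bases apart, with C9 on the same chromosome.

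C9 and C5 had the largest folds of means of the 37 genes tested, from few fragments. C5, which starts the pore, had 1.77, 1.48 and 1.54 FPKM in large follicles, against 0.393 and 0.746 FPKM in small follicles. Its fragments numbered 109, 79 and 86 in large and 20 and 40 in small follicles. C9, which forms the wall of the pore, had 1.55, 1.35 and 1.70 FPKM in large follicles, against 0.208 and 0.592 FPKM in small follicles. Fragments of C9 numbered 45, 34 and 45 in large and 5 and 15 in small follicles. For both genes every large follicle library lay above both small ones. The means differed 2.80-fold for C5 and 3.83-fold for C9. The log2 fold changes were 0.73 ± 0.25 and 0.87 ± 0.25 (SE), with limma adjusted p values of 0.309 and 0.199. Both genes reached 1 FPKM in large follicles only and so entered the test through the group where they were higher. Of 8 liver markers, liver being the main source of both proteins, 2 were tested and 0 called by limma, against 0.978% of all genes tested. TTR had 0 fragments in all libraries and ALB at most 0.254 FPKM, while APOA1 had 449 to 613 FPKM in large and 534 to 562 FPKM in small follicles.

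C8G, a chain of the eighth component, had 7.49, 3.60 and 5.68 FPKM in large and 3.08 and 8.503 FPKM in small follicles. Small follicle replicates 1 and 2 were the lowest and the highest of the 5, so the spread within the group was larger than the difference (log2 fold change 0.038, SE 0.41, limma adjusted p = 0.989). C6 had 0.584, 0.214 and 0.613 FPKM in large and 0.160 and 0.669 FPKM in small follicles, from 5 to 22 fragments, and was not tested.

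Among regulators and receptors, CLU had the largest log2 fold change of the 37 genes tested. CLU, clusterin, is a secreted chaperone that also blocks the terminal pore. It had 462, 509 and 386 FPKM in large follicles, against 175 and 283 FPKM in small follicles. Every large follicle library was above both small ones, although the lowest large and highest small values were no farther apart than the 2 small ones. The means were 453 ± 62.2 FPKM (SD, n = 3) in large and 229 ± 75.9 FPKM (SD, n = 2) in small follicles, a 1.98-fold difference with a log2 fold change of 1.01 (SE 0.26, 95% interval 0.42 to 1.60, limma adjusted p = 0.144). Leaving out small follicle replicate 2 gave 1.35, and leaving out small follicle replicate 1 gave 0.67. It lies at chromosome 14, 11336585 to 11352569 (Sscrofa11.1), with fragments numbering 9508, 9093 and 7218 in the large and 2983 and 5069 in the small follicle libraries.

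The membrane regulators that protect host cells overlapped between the groups in all 3 cases, where the groups of 26.1% of all genes tested did not overlap. CD59, which stops C9 from joining the pore, had 223, 204 and 250.4 FPKM in large follicles, against 194 and 236 FPKM in small follicles. Its log2 fold change was 0.069 with a 95% interval of -0.41 to 0.55 (limma adjusted p = 0.954). CD46, a cofactor for the cleavage of C3b, ranged from 53.0 to 78.9 FPKM in large and from 49.0 to 72.6 FPKM in small follicles. CD55, which speeds the decay of the convertases, ranged from 3.26 to 8.32 FPKM in large and from 4.78 to 12.5 FPKM in small follicles, with its lowest value in each group in large follicle replicate 2 and small follicle replicate 1. CFI, the soluble protease that cleaves C3b, had 7.71, 7.31 and 8.85 FPKM in large and 10.8 and 10.6 FPKM in small follicles, without overlap and lower in large follicles (log2 fold change -0.39, SE 0.25, limma adjusted p = 0.688). VTN, vitronectin, a plasma and matrix protein that blocks the pore, ranged from 5.06 to 6.42 FPKM in large and from 5.73 to 7.78 FPKM in small follicles.

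C3AR1 and C5AR1, receptors of the small fragments of C3 and C5 that attract and activate myeloid cells, had higher values in large follicles without overlap, and limma called neither. C5AR1 had 3.90, 7.80 and 11.5 FPKM in large follicles, against 3.84 and 3.13 FPKM in small follicles. Large follicle replicate 1 was close to small follicle replicate 1, and replicates 2 and 3 were well above (log2 fold change 0.86, SE 0.39, limma adjusted p = 0.488). C3AR1 had 1.89, 2.16 and 3.18 FPKM in large and 1.85 and 1.76 FPKM in small follicles, with limma giving 0.26 on the log2 scale (adjusted p = 0.847). The other C5a receptor, C5AR2, singled out after its values were seen, lay on the opposite side without overlap, with 1.75, 5.54 and 3.77 FPKM in large and 6.60 and 12.6 FPKM in small follicles (limma adjusted p = 0.311). C3AR1 and C5AR1 are genes of myeloid cells, whose macrophage markers are given above. Of 7 neutrophil markers 3 were tested and 0 called by limma, against 0.978% of all genes tested. Those 3 reached 1 FPKM in large follicles only, so they entered the test through the group where they were higher. The list summed to 27.4, 79.4 and 4.18 FPKM in large and 0.869 and 1.32 FPKM in small follicles. S100A12 gave most of that sum, with 19.7, 61.1 and 2.11 FPKM in large and 0 and 0.550 FPKM in small follicles. S100A8 was at 0 in both small follicle libraries and had 2.03, 9.33 and 0.248 FPKM in large ones, the last from 1 fragment. Among the untested markers, MPO lay on the opposite side, with 0.0357, 0 and 0 FPKM in large and 0.302 and 0.123 FPKM in small follicles. The groups of ELANE, also untested, overlapped. The 4 tested markers of red blood cells, of 5 listed, had higher values in large follicles. Limma called 0 of them, against 0.978% of all genes tested. All 4 were without overlap (median log2 fold change 1.25), against 10.9% of all genes tested in that direction. AHSP reached 1 FPKM in large follicles only and so entered the test through the group where it was higher. HBB, a haemoglobin chain, had 1295, 1663 and 995 FPKM in large and 697 and 231 FPKM in small follicles. The part of myeloid and blood cells in the receptor values and in those of the other plasma protein genes was not tested.

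**Figure D4:**
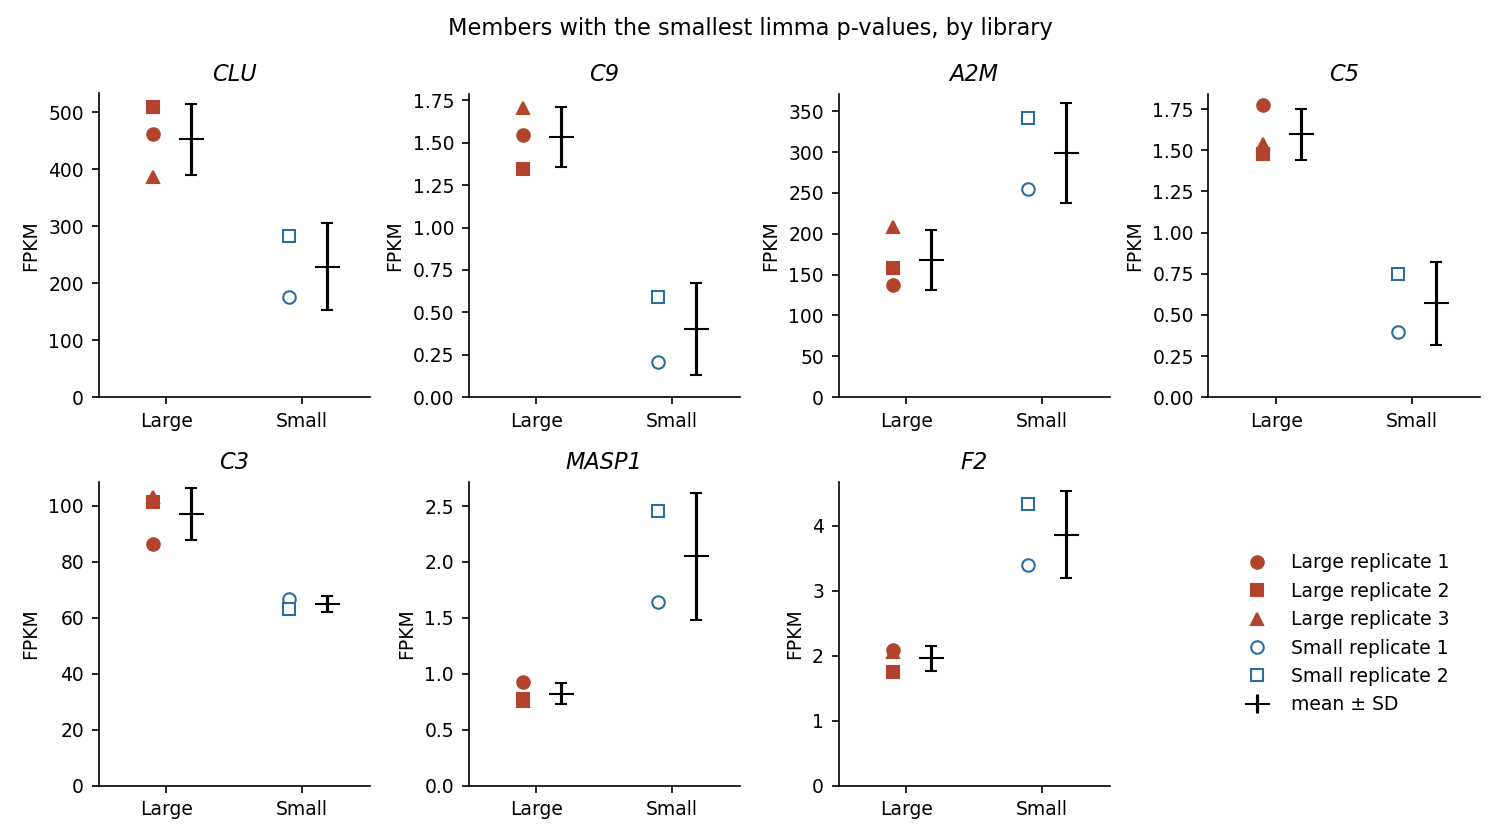
FPKM by library (vertical axes from 0) of the 7 genes with an unadjusted limma p under 0.05, large follicles at the left and small follicles at the right of each panel, with bars for the mean ± SD (n = 3 large, n = 2 small). The groups of each gene are apart, with CLU, C9, C5 and C3 higher and A2M, MASP1 and F2 lower in large follicles.

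Among the clotting factors and the thrombin receptor, F3 had the highest level and F5 and F10 the lowest. Limma called 0 of the 6 tested, against 0.978% of all genes tested. F3, tissue factor, had 90.003, 51.4 and 81.4 FPKM in large follicles, against 43.6 and 91.1 FPKM in small follicles. The lowest library of each group was again large follicle replicate 2 and small follicle replicate 1, and all large values lay between the 2 small ones (log2 fold change 0.19, 95% interval -0.56 to 0.95, limma adjusted p = 0.915). FGL2, a membrane prothrombinase of macrophages and endothelium, had 34.4, 17.6 and 33.6 FPKM in large and 28.7 and 31.8 FPKM in small follicles, with large follicle replicate 2 below all others (log2 fold change -0.14, limma adjusted p = 0.933).

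F2, prothrombin, had 2.09, 1.74 and 2.05 FPKM in large follicles, against 3.39 and 4.33 FPKM in small follicles. Its fragments numbered 47, 34 and 42 in large and 63 and 85 in small follicles. Both small follicle libraries were above all large ones, and the means were 1.97-fold higher in small follicles (log2 fold change -0.71, SE 0.27, limma adjusted p = 0.383). F2R, the main thrombin receptor, had 10.2, 10.96 and 13.3 FPKM in large and 12.7 and 16.0 FPKM in small follicles, where 1 large library lay above the lower small one (log2 fold change -0.30, limma adjusted p = 0.778). F8, the cofactor missing in haemophilia A, had 6.85, 7.19 and 5.67 FPKM in large and 4.75 and 5.32 FPKM in small follicles without overlap (log2 fold change 0.32, limma adjusted p = 0.778). F8A1, which overlaps F8 on the other strand, had 6.22 to 11.2 FPKM. F13A1, which cross-links fibrin, ranged from 1.49 to 4.66 FPKM in large and from 2.49 to 2.89 FPKM in small follicles. F5 and F10 had at most 31 and 10 fragments in a library.

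Clotting inhibitors included the member with the lowest log2 fold change, A2M. By fold of means, MASP1 and F2 were lower in large follicles than A2M was, at 2.5-fold and 1.97-fold higher in small follicles. A2M, a protease trap that also binds growth factors, had 137, 159 and 209 FPKM in large follicles, against 255 and 342 FPKM in small follicles. Both small follicle libraries were above all large ones. The means were 168 ± 36.6 FPKM (SD, n = 3) in large and 299 ± 61.6 FPKM (SD, n = 2) in small follicles, 1.78-fold higher in small follicles, with a log2 fold change of -0.83 (SE 0.25, 95% interval -1.39 to -0.27, limma adjusted p = 0.214). It lies at chromosome 5, 62406928 to 62483690 (Sscrofa11.1), with fragments numbering 7518, 7537 and 10384 in the large and 11564 and 16348 in the small follicle libraries. Leaving out small follicle replicate 2 gave -0.62, and leaving out small follicle replicate 1 gave -1.04.

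TFPI2, a protease inhibitor of the matrix, had 262, 185 and 240.0 FPKM in large follicles, against 160.3 and 266 FPKM in small follicles, with both small values outside the large range on opposite sides (log2 fold change 0.13, 95% interval -0.47 to 0.74, limma adjusted p = 0.929). Its relative TFPI, the main brake on tissue factor, had only 1.08, 0.433 and 1.52 FPKM in large and 0.637 and 1.21 FPKM in small follicles, so TFPI2 stood 158 to 427 times higher in large and 220.2 to 252 times higher in small follicles. F3 stood at 0.344, 0.277 and 0.339 of the TFPI2 level in large and at 0.272 and 0.342 of it in small follicles. PROS1, protein S, ranged from 16.6 to 26.7 FPKM in large and from 15.7 to 23.7 FPKM in small follicles.

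Limma called neither receptor of the protein C system. PROCR, the endothelial protein C receptor, had 10.8, 6.28 and 8.45 FPKM in large follicles, against 4.94 and 5.04 FPKM in small follicles. All large follicle libraries were above both small ones, whose values were nearly equal (log2 fold change 0.64, SE 0.29, limma adjusted p = 0.498). THBD, thrombomodulin, which turns thrombin toward protein C, had 15.4, 6.70 and 13.1 FPKM in large and 14.8 and 14.8 FPKM in small follicles, with large follicle replicate 2 below all others (log2 fold change -0.38, limma adjusted p = 0.793). Leaving out that library gave -0.056, and leaving out large follicle replicate 1 gave -0.60. THBD was 1.42, 1.07 and 1.54 times PROCR in large and 2.99 and 2.93 times in small follicles, a ratio that did not overlap between the groups and was not tested. Of 13 endothelial markers, all tested, 9 had positive and 4 negative fold changes (median 0.17), against 39.9% positive among all genes tested. Limma called 0, against 0.978%, and 1 had an unadjusted limma p under 0.05, against 10.4%. The groups of 2 did not overlap, which is 15.4% against 26.1% of all genes tested. The endothelial markers summed to 455, 339 and 360 FPKM in large and 276 and 336 FPKM in small follicles. Of these sums, EGFL7 alone gave 154, 69.2 and 88.9 FPKM in large and 52.1 and 76.2 FPKM in small follicles.

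**Figure D5:**
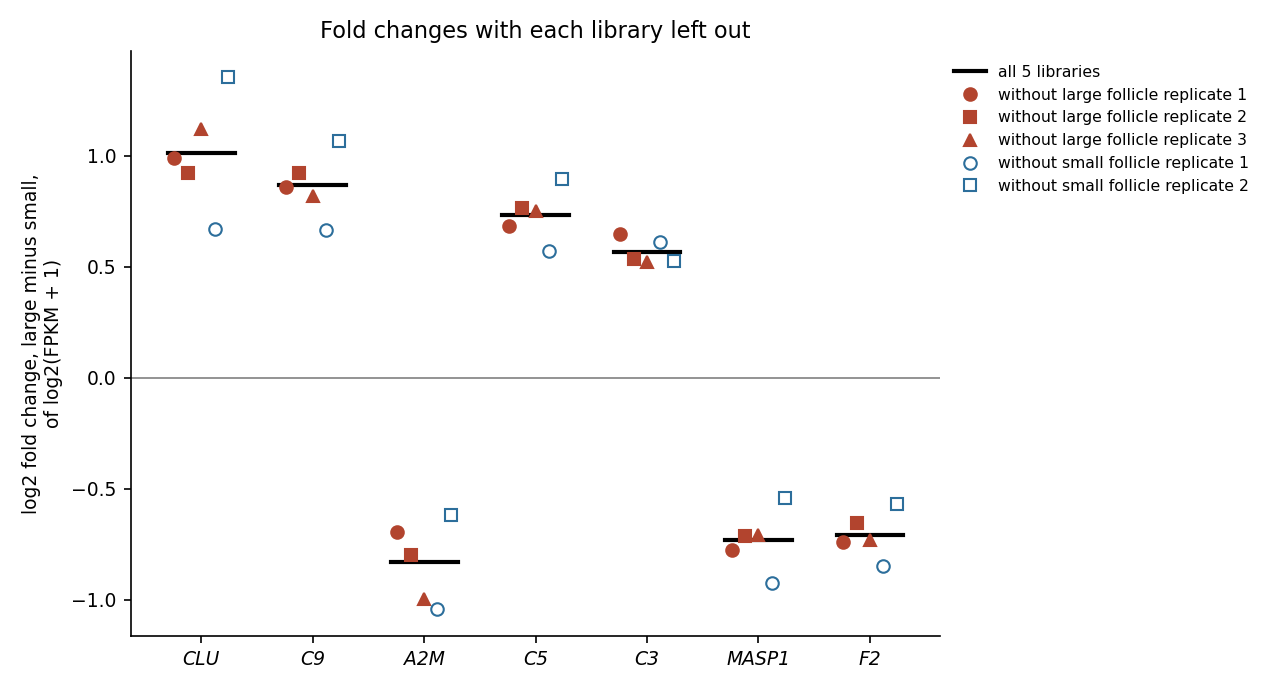
Log2 fold changes, large minus small follicles, of the 7 genes with an unadjusted limma p under 0.05, with all 5 libraries (black lines) and with each library left out in turn (symbols). All symbols keep the sign of their line, which was fixed in advance because the groups of these genes do not overlap. Those of C3 lie closest together, and leaving out a small follicle library moved CLU and A2M most.

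Of the other genes of the cascades 30 were tested, and limma called 0 of them, against 0.978% of all genes tested. Limma voom also called 0, against 0.535%. At an unadjusted limma p under 0.05 there were 7 of 30, against 10.4% of all genes tested. The groups of 16 did not overlap, 11 higher and 5 lower in large follicles, which is 53.3% against 26.1% of all genes tested. The 16 include KNG1, FCN1 and F2RL2, which reached 1 FPKM only in the group where they were higher and entered the test through it. Of the 30, 20 had a positive fold change where 39.9% of all genes tested did. Of 28 further complement genes, 24 are in the files and 13 were tested, 8 with positive and 5 with negative fold changes and a median of 0.23. The most abundant were SERPING1, the inhibitor of C1r and C1s, with 445, 488 and 468 FPKM in large and 383 and 322 FPKM in small follicles (limma adjusted p = 0.595), and C4A, the classical component that C1s cleaves, with 262, 241 and 277 FPKM in large and 209 and 235 FPKM in small follicles (limma adjusted p = 0.805). The smallest p values belonged to FCN2, ITGAM and FCN1. FCN2, a ficolin of the lectin route, had 3.08, 1.77 and 3.38 FPKM in large follicles, against 8.32 and 8.40 FPKM in small follicles (log2 fold change -1.35, SE 0.31, limma adjusted p = 0.0877). ITGAM, a chain of the myeloid receptor for cleaved C3, had 2.88, 4.15 and 5.34 FPKM in large and 1.57 and 1.12 FPKM in small follicles (log2 fold change 1.10, limma adjusted p = 0.180). FCN1, a ficolin of myeloid cells that reached 1 FPKM in large follicles only and entered the test through them, had 2.60, 10.7 and 1.34 FPKM in large and 0.469 and 0.318 FPKM in small follicles, its highest value in large follicle replicate 2, the library with the highest neutrophil marker sum (limma adjusted p = 0.276).

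Of 34 further clotting and fibrinolysis genes, 32 are in the files and 17 were tested, 12 with positive and 5 with negative fold changes and a median of 0.12. Factors F7, F9 and F11, the fibrinogen chains FGA and FGG and the kallikrein KLKB1 were at 0 in all 5 libraries. SERPINE2, an inhibitor of thrombin and plasminogen activators, had the highest mean of all genes listed here for both cascades, with 1439, 2065 and 3611 FPKM in large and 1078 and 2098 FPKM in small follicles (limma adjusted p = 0.771), and the next of this list was ANXA2, a plasminogen receptor subunit, with 326, 289 and 266 FPKM in large and 241 and 247 FPKM in small follicles (limma adjusted p = 0.766). F2RL2 and SERPINA5 were among the genes with the smallest p values. F2RL2, a thrombin receptor that reached 1 FPKM in small follicles only and entered the test through them, had 0.198, 0.424 and 0.187 FPKM in large follicles, against 1.3001 and 1.82 FPKM in small follicles (log2 fold change -1.01, SE 0.24, limma adjusted p = 0.102). SERPINA5, the protein C inhibitor, had 2.51, 1.51 and 1.74 FPKM in large and 4.71 and 4.51 FPKM in small follicles (limma adjusted p = 0.214).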

How the data were processed

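RNA was measured in 3 large and 2 small follicle libraries, grouped by title. Per the labels' protocols, RNA was extracted by the TRIzol method and a TruSeq Stranded mRNA kit gave the paired-end libraries. Each deposited file holds the FPKM of every gene as the authors computed it. The submitters' processing notes name the build Sscrofa11.1 and, without roles, featureCounts 1.5.0-p3, HISAT2 2.0.5, FastQC 0.11.4, StringTie 1.3.3 and Trimmomatic 0.38. Strand use in counting is not stated. Of 30822 genes, 30335 identifiers, all 40 genes described among them, matched a RefSeq table of that build, which gave chromosome numbers; C8G has no chromosome there.

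Library totals were worked back from FPKM steps. Of 23353 genes above 0, 49.5% gave whole fragments, within 0.001, at the listed length, and 11791 at the shortest length that did. Recovered fragments came to 99.5% to 99.6% of each total. Libraries within a group all differed by more than sampling noise (chi-square per degree of freedom at least 28.5).

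Genes reaching 1 FPKM in 2 or more libraries were tested on log2(FPKM + 1) with limma 3.58.1's moderated test, two-sided (R 4.3.3) with a mean-variance trend, follicle size as the sole term and Benjamini-Hochberg adjustment over all 13087 genes. The fit was tested on simulated libraries, with recovery of the largest simulated fold changes as the only criterion. Their spread was not taken from these libraries, so the simulation cannot decide how well differences of the size reported here are found. Values by library are given for the 2 genes of each role with the highest mean and the 2 with the smallest p. C1QA, C1QB, C1QC, CFP, CFI, C3AR1, F8, TFPI, THBD and C6 were added after their values were seen, as were the ratios. Of the further pathway genes, the 3 with the smallest p and the 2 with the highest mean of each list are named, except 1 that is not reported here. The genes and lists were chosen with earlier results of these data known. A symbol with several rows was represented by 1 row, taking protein-coding rows first and then the highest mean. Alternatives covered filters, pseudocounts, scalings, variance models, a replicate block, protein-coding genes only, limma voom on recovered fragments and each library left out.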

Additional observations from a re-analysis of the deposited data

How the results depend on the processing

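The count of 0 called complement and coagulation genes held under all 19 alternatives, in which the lowest adjusted p of any of them was 0.0705 (C9 with median-of-ratios scaling). Over all genes the count of 128 calls became 32 with no filter, 41 at a mean FPKM of at least 5, 201 with quantile normalization, 210 with median-of-ratios scaling, 82 for protein-coding genes only and 70 with limma voom. Leaving out 1 library gave 29 to 268 calls: 29 for large follicle replicate 1, 268 for large replicate 2, 222 for large replicate 3, 78 for small replicate 1 and 60 for small replicate 2. Leaving out both large replicate 2 and small replicate 1, an alternative added after the data were seen, gave 390. The cause was not tested.

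The median log2 fold change of the 37 genes tested, 0.13, was 0.0042 with libraries scaled to a common sum, where the median of all genes moved from -0.084 to -0.19, and 0.0063 to 0.22 with 1 library left out. With a replicate block it was 0.0063 and 0 of the genes described were called. The block leaves large follicle replicate 3 without effect, since no small library carries that number, and it called 157 genes in all. The numbers are not known to pair libraries. Deviations of large and small libraries from their group means correlated at -0.0015 for number 1 and -0.45 for number 2. With only 2 small libraries their deviations mirror each other, so these correlations cannot decide whether the numbers pair libraries.

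Of 693 fold changes of single genes under alternatives, 648 kept their sign and 45, of 16 genes, did not. CLU, A2M, C9, C5, C3, MASP1 and F2 kept theirs. Their groups do not overlap, so leaving out libraries could not have turned these signs. The sign turned for C1QC with median-of-ratios scaling (0.080). With a common sum it turned for C8G (-0.075), C2 (-0.022), CD46 (-0.037), CD59 (-0.056) and TFPI (-0.022). With a replicate block it turned for F13A1 (-0.18), CD46 (-0.069), C1QB (-0.049), CD59 (-0.0080) and TFPI (-0.14), and with library weights for F13A1 (-0.095), FGL2 (0.032) and C2 (-0.069). With both of those libraries (large replicate 2, small replicate 1) left out it turned for TFPI2 (-0.084), C8G (-0.34), FGL2 (0.095), CD46 (-0.16), C1QC (0.022), C1S (0.021), F3 (-0.089) and CD59 (-0.00024). With 1 library left out, fold changes ranged from -0.049 to 0.29 for C1QB, -0.14 to 0.18 for C1QC, -0.45 to 0.095 for C1S, -0.055 to 0.33 for C2, -0.57 to 0.65 for C8G, -0.19 to 0.37 for CD46, -0.999 to 0.22 for CD55, -0.071 to 0.21 for CD59, -0.15 to 0.45 for COLEC11 (0.51 with both libraries left out), -0.18 to 0.41 for F13A1, -0.33 to 0.71 for F3, -0.30 to 0.17 for FGL2, -0.13 to 0.44 for PROS1, -0.17 to 0.27 for TFPI, -0.23 to 0.50 for TFPI2 and -0.37 to 0.0093 for VTN. Among genes that kept their sign, the range was -0.26 to -0.0033 for C1QA, 0.076 to 0.68 for C7, 0.097 to 0.43 for CFD, 0.11 to 0.37 for C3AR1, -0.45 to -0.14 for F2R and -0.60 to -0.056 for THBD. Depth limits C5, C9, F2 and MASP1 most among the genes with the smallest p, as their fragments show.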
